A study of Mus musculus with 8 samples.

Results

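Megalin and cubilin, encoded by *Lrp2* and *Cubn*, are the receptors with which the proximal tubule takes filtered protein back from the urine. The genes described here are both receptors and 5 genes that serve them: *Amn*, *Dab2*, *Lrpap1*, *Clcn5* and *Ocrl*. They were chosen by symbol, all were found, and they are 7 of the 32285 genes counted in a single-cell library of embryonic mouse kidneys. The library was made from 1 pool of cells in which each embryo carried its own oligonucleotide tag, and a companion library on the same barcodes counted the tags. The tag list names 2 embryos as ko and 2 as wt. The ko embryos are male *Trim28* Δ/Δ, in which a transgene with the *Six2* promoter driving EGFP and cre removes a floxed segment of *Trim28* in nephron progenitor cells, so that their descendants carry the deletion and stroma, vessels, blood cells and the ureteric bud lineage do not. The wt embryos are male *Trim28* f/f, so that both groups carry the floxed allele. Only the Δ/Δ embryos are described with the transgene, so that its presence and the deletion cannot be told apart here. The labels give embryonic day 17.5 (E17.5) and the study's methods a stage one day later. The comparison asks whether loss of TRIM28, a corepressor of transcription, in nephron progenitors changed these genes in the tubule cells that arose from them.

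In the fetal and adult kidney, megalin is a very large receptor of the low density lipoprotein receptor family that spans the apical membrane, whereas cubilin has no membrane anchor and depends on amnionless, the product of *Amn*, to reach and stay at the surface. DAB2 links the tail of megalin to the clathrin coat, and the receptor-associated protein, encoded by *Lrpap1*, is a chaperone that keeps megalin from binding ligands before it leaves the endoplasmic reticulum. CLC-5, the product of *Clcn5*, exchanges chloride for protons in endosomes, and OCRL is a phosphatase of membrane inositol lipids on the path that returns the receptors to the surface. Loss of *CLCN5* or *OCRL* in people causes Dent disease, and loss of *OCRL* also causes Lowe syndrome, both with loss of small proteins in the urine.

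The members lie at 7 separate places in the genome (GRCm38, GENCODE M21 positions). *Lrp2* spans chr2:69424340-69586065 and *Cubn* chr2:13276338-13491813, both on the minus strand. *Amn* spans chr12:111271095-111276426 on the plus strand, *Dab2* chr15:6299788-6440712 on the plus strand and *Lrpap1* chr5:35091501-35105766 on the minus strand. *Clcn5* spans chrX:7153810-7319358 on the minus strand and *Ocrl* chrX:47912387-47965868 on the plus strand. The bases before the start of *Lrp2*, *Cubn* and *Amn* are shown because these 3 genes, the receptors and the anchor of cubilin, were highest in the same cell classes while their promoters differed in letters. Each runs 5′ to 3′ on the strand of its gene, from RefSeq on GRCm38.p6, and capitals mark matches to the motifs searched. Bases that GENCODE counts as part of the gene are left out at the 3′ end, 36 for *Lrp2* and 1 for *Amn*, so that positions given from the RefSeq start count these bases too.
Lrp2, chr2:69586066-69586279, minus strand: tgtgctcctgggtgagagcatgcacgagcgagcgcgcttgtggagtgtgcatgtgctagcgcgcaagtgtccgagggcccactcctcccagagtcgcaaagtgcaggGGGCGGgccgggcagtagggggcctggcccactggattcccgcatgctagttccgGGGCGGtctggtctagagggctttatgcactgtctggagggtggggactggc
Cubn, chr2:13491877-13492126, minus strand: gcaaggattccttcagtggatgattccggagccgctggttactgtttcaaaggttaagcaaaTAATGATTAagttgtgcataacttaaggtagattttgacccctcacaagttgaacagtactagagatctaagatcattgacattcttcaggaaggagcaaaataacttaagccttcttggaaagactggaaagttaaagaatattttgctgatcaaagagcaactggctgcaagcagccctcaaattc
Amn, chr12:111270846-111271094, plus strand: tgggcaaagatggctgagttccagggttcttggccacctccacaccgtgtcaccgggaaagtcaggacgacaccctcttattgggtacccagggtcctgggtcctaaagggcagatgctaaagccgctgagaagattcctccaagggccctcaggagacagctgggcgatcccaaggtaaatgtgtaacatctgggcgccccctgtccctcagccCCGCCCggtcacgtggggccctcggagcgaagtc

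Short motifs were searched on both strands in the 250 bases before the start of all 32851 promoters in the table. The core of the HNF1 motif, TAATNATTA, the motif of a homeodomain factor of proximal tubule and liver, was present in 193 promoters (0.588%). It was found in *Cubn*, at 188 to 180 bases before the start, and in no other member. The HNF4 motif, written CAAAGTCCA, was present in 126 promoters (0.384%) and in no member. The GC box, GGGCGG, was present in 10756 promoters (32.7%). *Lrp2* held it at 143 to 138 and at 88 to 83 bases before the start, and *Amn* held it on the opposite strand at 35 to 30 bases. The 250 bases of *Lrp2* were 66.4% G and C, that of *Amn* 61.2% and that of *Cubn* 39.6%. *Lrpap1* held 5 GC boxes, *Ocrl* 2 and the first of the 2 *Clcn5* promoters 1, and neither *Dab2* promoter held a match. A match is a likeness of letters, and no match says only that these letters are not in the window.

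Of 3921239 barcodes, 19272 passed as cells, and 7363 of these were assigned to one of the 4 mice: the Δ/Δ animals gave 1316 (mouse 1) and 1491 (mouse 2), the f/f animals 2749 and 1807. The median cell held 16386 to 17354 unique molecular identifiers (UMIs, each a counted RNA molecule) in the 4 mice. Cell classes are called "-like" from marker genes. All 9 proximal tubule (PT) markers were raised in the PT-like cluster, 5 of 5 early proximal tubule (ErPT) markers in the ErPT-like cluster, and the tissue labelled kidney held nephron, ureteric, stromal, vascular and blood cell classes. One further cluster, cluster 6, was led by *Aadat*, *Cryab*, *Slc7a12*, *Serpina6* and *Serpina1a* and also by the tubule genes *Mep1a* and *Aqp1*, met the marker rule of no type, and is called by its number. The class named S-shaped body (SSB)-like was led by genes of dividing cells (*Ube2c*, *Cenpf*, *Top2a*) and by no SSB marker, and its marker score was 1.05 for SSB and 0.9902 for renal vesicle, so that its name is uncertain. *Trim28* was at 20.6 and 23.6 CPM (UMIs of the gene scaled to a common total of UMIs in the class and mouse) in PT-like cells of the Δ/Δ mice and at 57.5 and 71.0 in f/f mice (log2 change -1.53, edgeR adjusted p = 0.00596). It was also lower in ErPT-like cells (adjusted p = 0.00384) and cluster 6 (adjusted p = 0.00494), whereas stroma-like cells had 105 and 101 CPM in Δ/Δ and 83.8 and 112 in f/f mice. Reads at the 3′ end lie outside the floxed segment, so these counts do not show the deletion itself. Mice of one genotype were unequal in their cells: f/f mouse 1 gave 21 cells of cluster 6 and f/f mouse 2 gave 87, and in ErPT-like cells these mice gave 454 and 159. Collecting duct-like cells join cluster 11 (110 and 121 cells in the Δ/Δ mice, 3 and 90 in the f/f mice) and cluster 15 (0, 1, 169 and 0), so that those of f/f mouse 1 lie in another cluster than those of the other mice.

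Both receptors were highest in PT-like cells, next highest in cluster 6, and then in ErPT-like cells, in all 4 mice together. The classes were made from these same cells, and 6 of the 7 members (all but *Ocrl*) were among the 3000 genes used to cluster them, so the levels by class are a description without a test. Levels are given as CPM over the summed UMIs of a class, and the order covers the 19 classes with at least 10 cells in every mouse. UMIs are counted at the 3′ end, so that levels are compared between classes for one gene and not between genes. As the level of free RNA in the droplets, each gene's CPM in 353040 barcodes with 10 to 100 UMIs is given.

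*Lrp2* stood at 1255 CPM in the 574 PT-like cells, 683 in the 419 cells of cluster 6, 424 in the 817 ErPT-like cells and 112 in the dividing SSB-like cells. The ranges of the 4 mice did not overlap between neighbours in this order down to SSB-like cells. Distal tubule-like cells had 81.0 CPM, and the other 14 of the 19 classes had 38.2 to 61.7. Free RNA held 184 CPM of *Lrp2*, so that PT-like cells had 6.83 times the free level, ErPT-like cells 2.31 times, SSB-like cells 0.612 times and distal tubule-like cells 0.441 times, against 0.223 times in loop of Henle-like cells. At 6800 UMIs drawn from each cell, 99.7% of PT-like cells and 21.4% of loop of Henle-like cells had an *Lrp2* UMI, where all UMIs gave 100% and 46.6%. The median depth of the cells was 25388.5 UMIs in PT-like and 17962 in loop of Henle-like cells.

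*Cubn* stood at 187 CPM in PT-like cells and 157 in cluster 6, with overlapping ranges of the mice. ErPT-like cells had 50.1 CPM, in each mouse below every mouse of cluster 6, with a range that overlapped that of SSB-like cells at 15.2. The other classes of the 19 were between 4.37 and 10.6 CPM, under the 38.5 of free RNA. A *Cubn* UMI was found in 69.5% of PT-like, 23.0% of ErPT-like and 4.07% of loop of Henle-like cells at 6800 UMIs. *Amn*, the partner that anchors cubilin, was at 316 CPM in PT-like cells, 200 in cluster 6, 106 in ErPT-like and 39.3 in SSB-like cells, each apart from the next in all mice. It was at 30.2 CPM in distal tubule-like cells and at 6.23 to 17.2 in the rest of the 19 classes, against 82.3 in free RNA.

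The adaptor was also high in cells other than those of the proximal tubule. *Dab2* was highest in immune-like cells, which include macrophages, at 756 and 599 CPM in the Δ/Δ mice and 399 and 590 in the f/f mice. Their range overlapped that of PT-like cells, at 356 CPM over all mice. Cluster 6 followed at 252, intercalated-like cells at 242 and ErPT-like cells at 220, and the rest of the 19 classes were at or under 87.2 CPM, with 79.4 in free RNA. Intercalated-like cells, named for a cell type of the collecting system, held 422 and 366 CPM of *Dab2* in the Δ/Δ mice and 116 and 285 in the f/f mice. *Lrpap1* was at 585 CPM in PT-like cells and 580 in cluster 6, with overlapping ranges, then at 360 in ErPT-like and 152 in SSB-like cells. It was at 36.6 to 119 CPM in the rest of the 19 classes. Over all mice these levels and that of SSB-like cells lie under the 155 of free RNA. In f/f mouse 1 alone, SSB-like cells had 194 CPM. A level under that of free RNA does not show that a class lacks the gene, and its source was not tested.

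The endosomal genes followed another pattern. *Clcn5* was highest in the 92 intercalated-like cells, at 953 and 1038 CPM in the Δ/Δ mice, 172 in f/f mouse 1 and 944 in f/f mouse 2, and every mouse was above cluster 6. The 3 other mice were close to each other and f/f mouse 1 was far below them. The summed CPM of 5 intercalated markers was also lowest in f/f mouse 1 (3058 against 3919 to 6362 in the others), and its part in the result was not tested. The next classes were cluster 6 at 131 CPM, PT-like cells at 110, loop of Henle-like cells at 96.0 and ErPT-like cells at 87.4, all with overlapping ranges. A *Clcn5* UMI was found in 52.4% of PT-like, 43.2% of loop of Henle-like and 17.3% of stroma-like cells at 6800 UMIs, and free RNA held 42.9 CPM. *Ocrl* was low in all 19 classes, at 8.73 to 34.9 CPM with 16.5 in free RNA, and its highest class was collecting duct-like cells, at 39.1 and 37.9 CPM in the Δ/Δ mice, 28.9 in f/f mouse 1, whose cells lie in cluster 15, and 38.5 in f/f mouse 2. No neighbours among its 8 highest classes were apart. PT-like cells held an *Ocrl* UMI in 13.8% of cells and loop of Henle-like cells in 16.3%, so that its counts did not set the proximal tubule apart at this depth.

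One cluster was left outside this order. Cluster 22 had 59 cells (8 and 18 in the Δ/Δ mice, 30 and 3 in the f/f mice), was led by *Ly6d*, *Ulk4*, *Cyp11a1* and *Hsd3b1*, the last 2 enzymes of steroid synthesis, and was too small to test. Its *Lrp2* was at 446 and 357 CPM in the Δ/Δ mice and at 262 and 402 in the f/f mice, or 321 over all, above the 184 of free RNA and, over all mice, between ErPT-like and SSB-like cells. Over its cells *Dab2* was at 139.8 CPM, *Clcn5* at 92.2 and *Ocrl* at 32.3, each above free RNA. *Lrpap1* at 175, *Cubn* at 39.95 and *Amn* at 79.9 lay close to the free levels of 155, 38.5 and 82.3. Whether these UMIs came from the cells or from free RNA was not tested. The *Cubn* value rests on 11 UMIs in Δ/Δ mouse 2 and 15 in f/f mouse 1, with 0 in the other mice.

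**Figure D1:**
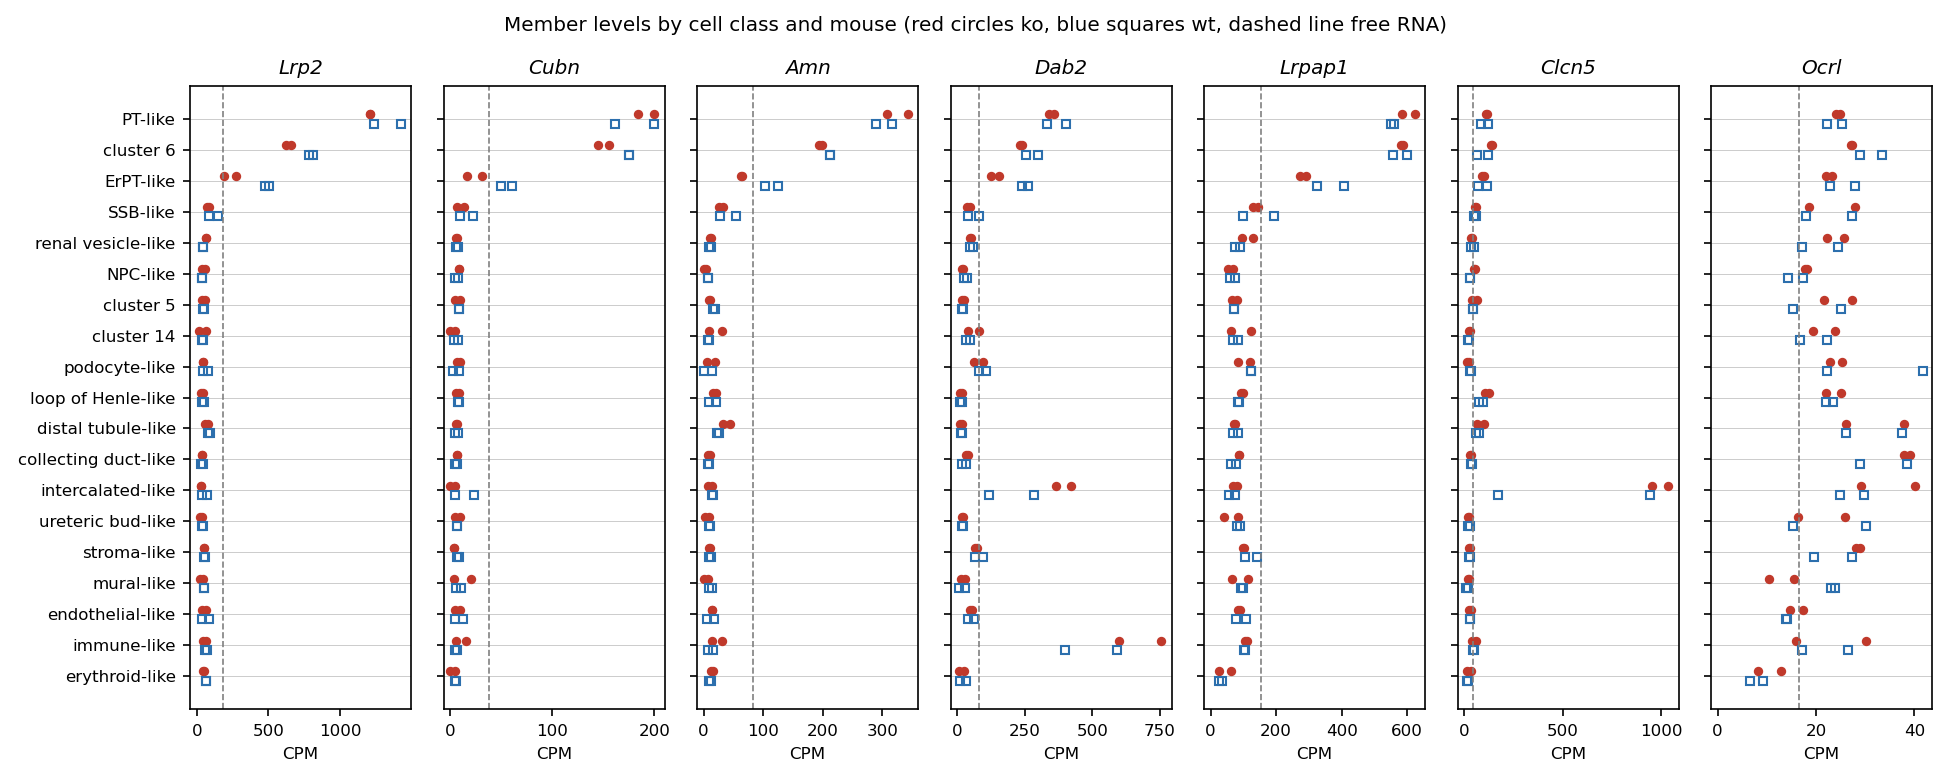
Level of each member (CPM, horizontal axis, linear, a scale for each gene) in 19 cell classes; red circles are the 2 Trim28 Δ/Δ mice (ko), blue squares the 2 Trim28 f/f mice (wt), and the dashed line is free RNA. *Lrp2*, *Cubn* and *Amn* exceed free RNA in PT-like cells and cluster 6 in every mouse, *Dab2* is also high in immune-like and intercalated-like cells, and *Clcn5* reaches 1038 CPM in intercalated-like cells.

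In PT-like cells none of the 7 members passed the test between genotypes (edgeR, adjusted p from 0.769 to 0.965). At an unadjusted p of 0.05 the count was also 0, and DESeq2 called 0. Over all 11426 genes tested in this class, 0.569% were called and 10.7% had an unadjusted p under 0.05, and DESeq2 called 0.764% of its 11390. *Lrp2* was at 1207 and 1207 CPM in Δ/Δ mice 1 and 2 and at 1236 and 1423 in f/f mice 1 and 2. Its Δ/Δ values lay just below both f/f values, and the log2 change was -0.13 ± 0.11 (SE, 2 mice per genotype; edgeR adjusted p = 0.769). *Cubn* was at 200 and 184 CPM in the Δ/Δ mice and 162 and 200 in the f/f mice, which overlapped (log2 change 0.09 ± 0.14).

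*Amn* was at 343 and 308 CPM in the Δ/Δ mice and 289 and 316 in the f/f mice (log2 change 0.11 ± 0.13). *Dab2* was at 358 and 341 CPM against 334 and 402 (log2 change -0.07 ± 0.13). Both genes overlapped between genotypes. *Lrpap1* was at 625 and 585 CPM in the Δ/Δ mice, above the 559 and 551 of the f/f mice, with a log2 change of 0.13 ± 0.12 (adjusted p = 0.780). *Clcn5* was at 112 and 118 CPM in Δ/Δ mice and at 86.3 and 120 in f/f mice (log2 change 0.16 ± 0.17), with f/f mouse 1 the lowest. *Ocrl* was at 24.1 and 24.8 CPM against 25.4 and 22.2 (log2 change 0.04 ± 0.18). One member had both Δ/Δ mice below both f/f mice, 1 had them above, and 5 overlapped. Of all genes tested 20.8% had the Δ/Δ mice below and 19.6% above. The median log2 change of the 7 was 0.09, beside -0.0050 for all genes tested. Without f/f mouse 2, *Clcn5* passed the test (log2 change 0.40, adjusted p = 0.0263), where 14.7% of 12158 genes did. Genes that changed by 4-fold in simulated counts of this class were recovered in 98.0% and those that changed by 2-fold in 61.6%, so smaller changes could be missed with 2 mice a genotype.

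The share of PT-like cells with a UMI of a member overlapped between genotypes for all members but *Amn* and *Dab2*, which were higher in both Δ/Δ mice. These shares were computed for the members only. No share over all genes stands beside this count, and it is not read as a result. At 6800 UMIs a cell, *Lrp2* was found in 98.9% and 100% of PT-like cells of the Δ/Δ mice and in 100% of both f/f mice. *Cubn* was found in 74.9% and 67.1% against 61.1% and 74.7%, and *Dab2* in 92.7% and 92.4% against 87.3% and 91.9%. *Amn* was found in 89.9% and 85.9% against 85.7% and 77.8%, a difference of the means of 6.17 percentage points, which with all UMIs was -0.152. The exact permutation test over 2 mice against 2 cannot go below p = 0.333, and the 7 members gave two-sided p from 0.333 to 1. The median PT-like cell held 8 *Lrp2* UMIs of 6800 in Δ/Δ mouse 1, 8 in Δ/Δ mouse 2, 8 in f/f mouse 1 and 9 in f/f mouse 2. In ErPT-like cells the medians were 1 and 1 in the Δ/Δ mice and 2 and 3 in the f/f mice.

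**Figure D2:**
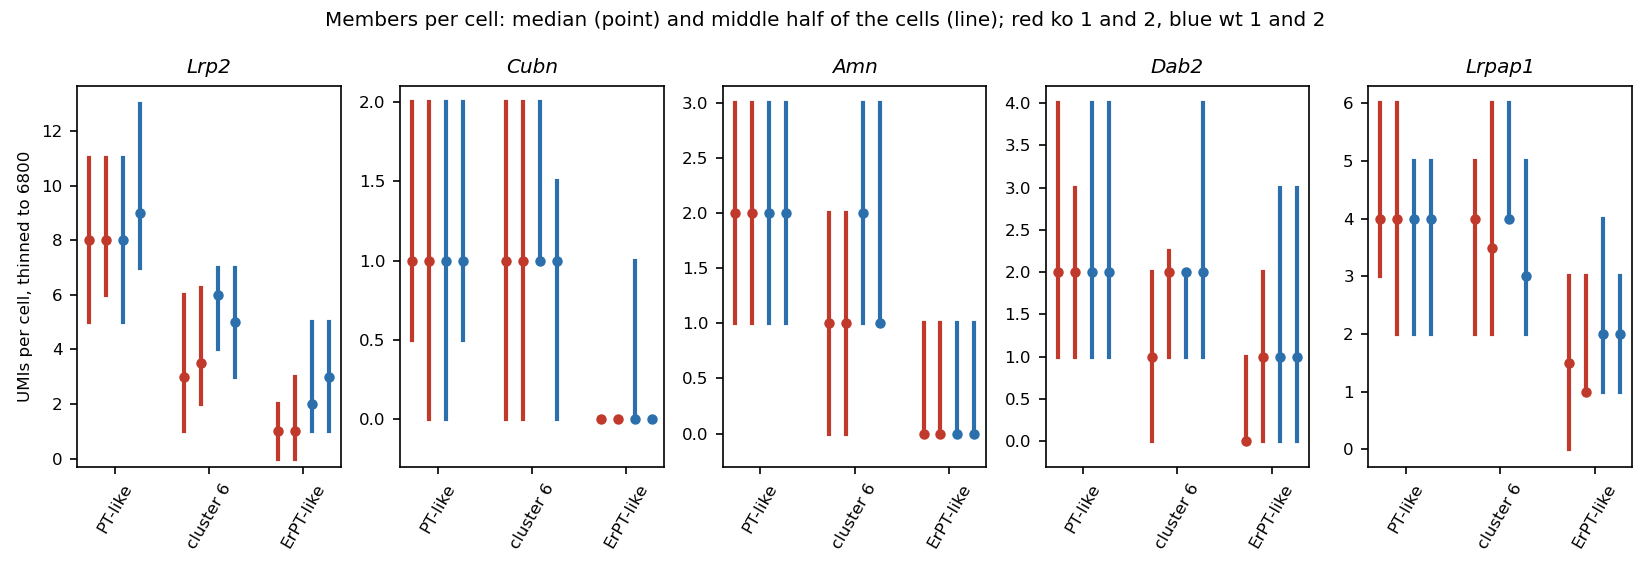
UMIs of 5 members per cell after drawing 6800 UMIs from each cell (vertical axis), by class; points are medians over cells, lines run from the lower to the upper quartile of cells, red Trim28 Δ/Δ mice 1 and 2, blue Trim28 f/f mice 1 and 2, and a point without a line has both quartiles at its median . For *Lrp2* the 4 mice lie at medians of 8 to 9 in PT-like cells and at 1 to 3 in ErPT-like cells, where both Δ/Δ mice are below both f/f mice.

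In ErPT-like cells 1 of the 7 members passed the test, *Lrp2*, which fell by 1.09 on the log2 scale ± 0.17 (SE; edgeR adjusted p = 0.0488), or 2.12-fold. Over all 11256 genes tested in this class, 0.373% were called. *Lrp2* was at 188 and 276 CPM in the Δ/Δ mice and at 475 and 504 in the f/f mice, which did not overlap. *Dab2* was at 126 and 154 CPM against 238 and 262, with a log2 change of -0.85 ± 0.15 (adjusted p = 0.0757). *Amn* was at 63.8 and 62.5 CPM against 125 and 104 (log2 change -0.88 ± 0.18, adjusted p = 0.140).

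*Cubn* was at 16.7 and 31.2 CPM in the Δ/Δ mice and 61.0 and 50.2 in the f/f mice, with a log2 change of -1.19 ± 0.28 (adjusted p = 0.240), from 23 and 71 UMIs in the Δ/Δ mice. *Lrpap1* was at 290 and 274 CPM against 409 and 326 (log2 change -0.40 ± 0.16, adjusted p = 0.600). In these 5 genes, both receptors and their direct partners, each Δ/Δ mouse was below each f/f mouse, where 18.2% of all genes tested were below and 18.9% above. Each of the 5 had an unadjusted p under 0.05, beside 7.76% of all genes. The endosomal genes overlapped: *Clcn5* was at 90.0 and 102 CPM against 72.5 and 115, and *Ocrl* at 23.2 and 22.0 against 27.99 and 22.8. The median log2 change of the members was -0.85, beside -0.0066 over all genes tested. In simulated counts of this class, genes that changed by 4-fold were recovered in 89.8% and those that changed by 2-fold in 24.2%. Members that did not pass are therefore not shown to be unchanged.

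Markers of the mature proximal tubule moved with these genes in ErPT-like cells. Of 9 PT markers, 8 were lower in both Δ/Δ mice than in both f/f mice, none was without a UMI, and their summed level was 818 and 930 CPM against 1391 and 1625. *Slc34a1*, the sodium-phosphate cotransporter of this segment, fell from 255 and 203 CPM in f/f mice to 92.9 and 92.4 in Δ/Δ mice (log2 change -1.33, adjusted p = 0.0184). The 5 ErPT markers summed to 975 and 1036 CPM against 1026 and 1100, with 2 lower, 1 higher and 2 overlapping. The part of the PT markers in the result was not tested. In sums over a class, fewer cells of one kind and less RNA per cell cannot be told apart. DESeq2 called *Lrp2* and *Dab2*, and 0.372% of 13166 genes. When a mouse was left out, 0 members passed without Δ/Δ mouse 1 (0.0915% of all genes), 0 without Δ/Δ mouse 2 (0.174%), 4 without f/f mouse 1 (2.30%) and 6 without f/f mouse 2 (18.3%). Not every one of these changes was a fall, as *Clcn5* ran from -0.23 to 0.36 with a mouse left out. *Lrp2* also did not pass the test with a minimum of 2500 UMIs per barcode (log2 change -0.55, adjusted p = 0.280) or at a clustering resolution of 1.2 (log2 change -0.65, adjusted p = 0.273). At that resolution the ErPT-like class was made of 79 and 108 cells in the Δ/Δ mice and 198 and 123 in the f/f mice, where f/f mouse 1 gave 454 before. A further cluster of 381 cells, 317 of them from f/f mouse 1, was then named PT-like, led by *Mt1*, *Sult1d1*, *Mt2* and *Pck1*. The part of these cells in the result was not tested.

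The difference between both classes was tested directly, as the Δ/Δ against f/f change in PT-like cells minus that in ErPT-like cells, in a model with a term for each mouse. Of the 7 members 3 passed, where 0.529% of 12097 genes did. The difference was 0.99 ± 0.17 for *Lrp2* (edgeR adjusted p = 0.0218), 1.002 ± 0.19 for *Amn* (adjusted p = 0.0295) and 0.80 ± 0.16 for *Dab2* (adjusted p = 0.0445), all on the log2 scale. *Cubn* had 1.30 ± 0.28 (adjusted p = 0.0548) and *Lrpap1* 0.54 ± 0.15 (adjusted p = 0.170). *Clcn5* (0.14) and *Ocrl* (0.26) did not pass. Without Δ/Δ mouse 1 no member passed (0.0718% of all genes), without Δ/Δ mouse 2 only *Lrp2* did (0.0480%), and without f/f mouse 2 the count was 5 (4.79%). With clusters made without the members and pathway genes, *Lrp2* (1.001, adjusted p = 0.0205) and *Amn* (0.89, adjusted p = 0.0455) passed and *Dab2* (0.78, adjusted p = 0.0528) did not. No member passed with a minimum of 2500 UMIs (*Lrp2* 0.49, adjusted p = 0.241) or at resolution 1.2 (*Lrp2* 0.73, adjusted p = 0.0997), where 0.253% and 0.517% of all genes did. Against loop of Henle-like cells, 0 of 7 differences passed, none had an unadjusted p under 0.05, and they ran from -0.22 to 0.38, where 0.114% of 12260 genes were called.

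In cluster 6 no member passed by edgeR or DESeq2, and 1 had an unadjusted p under 0.05. Of 10892 genes 0.413% were called and 7.70% had such a p, and DESeq2 called 0.225% of 14191. *Lrp2* was at 624 and 654 CPM in the Δ/Δ mice and 810 and 779 in the f/f mice (log2 change -0.35 ± 0.10, unadjusted p = 0.00695, adjusted p = 0.366). *Cubn* was at 156 and 145 CPM against 175 and 175, and *Dab2* at 233 and 240 against 253 and 298. In this cluster 5 members had both Δ/Δ mice below both f/f mice, 1 had them above and 1 overlapped, where 15.9% of all genes tested were below and 22.6% above. The one above was *Clcn5*, at 144 and 135 CPM against 67.0 and 121, where f/f mouse 1 had 36 UMIs. Without f/f mouse 2, *Clcn5* (log2 change 1.03, adjusted p = 0.00353) and *Lrp2* (-0.36, adjusted p = 0.0471) passed, as did 3.51% of all genes, and without any one of the other mice no member tested passed. *Clcn5* ran from 0.18 without f/f mouse 1 to 1.03. PT markers were again lower in this cluster: *Slc34a1* fell from 596 and 502 CPM in f/f to 254 and 238 in Δ/Δ mice (adjusted p = 0.00342), *Spp2*, a secreted phosphoprotein, also fell (adjusted p = 0.00474), and the 9 markers summed to 2530 and 2311 CPM against 3766 and 2922. Their part in the values of the members was not tested.

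**Figure D3:**
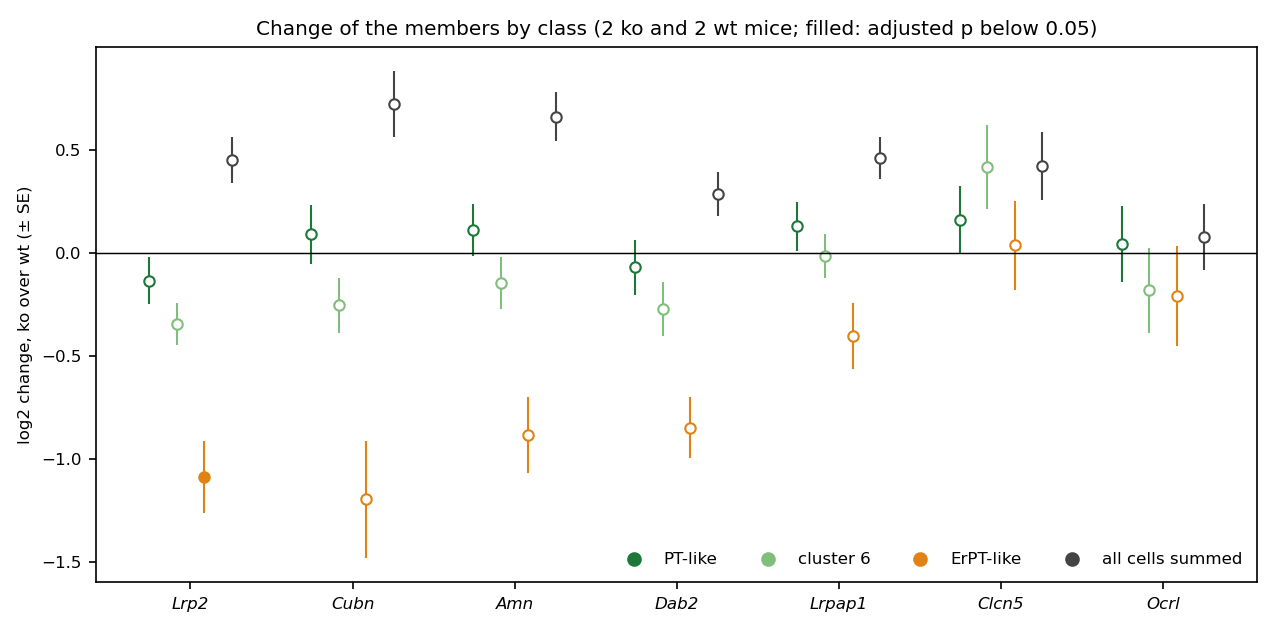
Log2 change of each member (vertical axis, Trim28 Δ/Δ over Trim28 f/f, ± SE from edgeR, 2 mice per genotype) in PT-like cells, cluster 6, ErPT-like cells and all cells summed; a filled point has an adjusted p below 0.05. *Lrp2* in ErPT-like cells is the 1 filled point at -1.09, PT-like values lie between -0.13 and 0.16, and the sums over all cells lie between 0.08 and 0.72.

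Over all cells of a mouse the order turned. *Lrp2* was at 338 and 329 CPM in the Δ/Δ mice and 219 and 254 in the f/f mice (log2 change 0.45 ± 0.11, adjusted p = 0.158). *Cubn* was at 60.3 and 54.6 CPM against 29.6 and 38.0 (log2 change 0.72 ± 0.16, adjusted p = 0.128), and *Amn* at 101 and 88.4 against 57.1 and 58.6 (log2 change 0.66 ± 0.12, adjusted p = 0.0928). All but *Ocrl* had both Δ/Δ mice above both f/f mice, as had 29.4% of all genes tested, while 19.3% were below.

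*Dab2* was at 141 and 132 CPM over all cells of the Δ/Δ mice and 105 and 112 of the f/f mice, *Lrpap1* at 259 and 246 against 187 and 169, and *Clcn5* at 86.0 and 88.4 against 53.6 and 72.4. By edgeR no member passed, where 0.206% of 16524 genes were called. An unadjusted p under 0.05 was found for 6 members and 15.7% of all genes. DESeq2 called 2 members (*Cubn* and *Amn*) and 4.25% of 16384 genes. The count was 4 without f/f mouse 1 (11.4% of all genes called), 6 without f/f mouse 2 (26.2%), 0 without Δ/Δ mouse 1 (0.362%) and 0 without Δ/Δ mouse 2 (0.788%). The median log2 change of the members was 0.45, beside -0.014 for all genes. By share of cells, the PT-like class made up 13.6% and 11.4% in the Δ/Δ against 4.58% and 5.48% in the f/f animals, and cluster 6 was 10.3% and 11.8% against 0.764% and 4.81%. ErPT-like cells were 6.38% and 8.05% against 16.5% and 8.80%. PT-like cells and cluster 6 together were 23.9% and 23.2% against 5.35% and 10.3%. At a clustering resolution of 1.2 the shares overlapped, with 14.1% and 12.2% PT-like cells against 12.6% and 7.42%, and 6.003% and 7.24% ErPT-like cells against 7.20% and 6.81%. An unnamed cluster led by *Aadat* and *Cryab*, as cluster 6 was, then held 133 and 176 cells against 21 and 87. At resolution 0.4 PT-like cells were 20.1% and 18.8% against 5.46% and 9.19%, and ErPT-like cells 10.5% and 12.6% against 15.2% and 9.91%.

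The whole-kidney level of *Lrp2* was split by the class its UMIs came from. PT-like cells gave 227 and 191 of the CPM in the Δ/Δ mice and 80.3 and 125 in the f/f mice. Cluster 6 gave 70.5 and 81.0 against 8.24 and 47.9, whereas ErPT-like cells gave 10.1 and 20.2 against 73.6 and 43.1. Thus 67.1% (95% Clopper-Pearson interval 66.1 to 68.1) and 58.0% (57.1 to 59.0) of all *Lrp2* UMIs lay in PT-like cells of the Δ/Δ mice, and 36.7% (35.9 to 37.6) and 49.3% (48.2 to 50.3) in those of the f/f mice. The groups did not overlap, the intervals cover counting error only, and the exact two-sided permutation p of 0.333 is the smallest the design allows. The same share of *Cubn* UMIs was 62.3% and 53.3% against 35.6% and 46.4%, and that of *Clcn5* UMIs was 24.4% and 21.1% against 10.5% and 14.6%. Of the UMIs of all genes, 18.8% and 15.8% lay in PT-like cells of the Δ/Δ mice and 6.50% and 8.79% in those of the f/f mice. These did not overlap either, so the split between genotypes is not particular to the members. For *Ocrl* the shares were 18.6% and 15.6% against 6.41% and 9.87%, close to those of all genes. At a clustering resolution of 1.2 the *Lrp2* shares were 68.3% and 60.4% against 62.9% and 57.8%, which overlapped, and the difference of the genotype means fell from 19.6 to 3.95 percentage points (exact p = 0.667). The *Cubn* shares were then 63.5% and 54.4% against 63.8% and 51.9%, a difference of 1.09 points in place of 16.8 (exact p = 1).

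**Figure D4:**
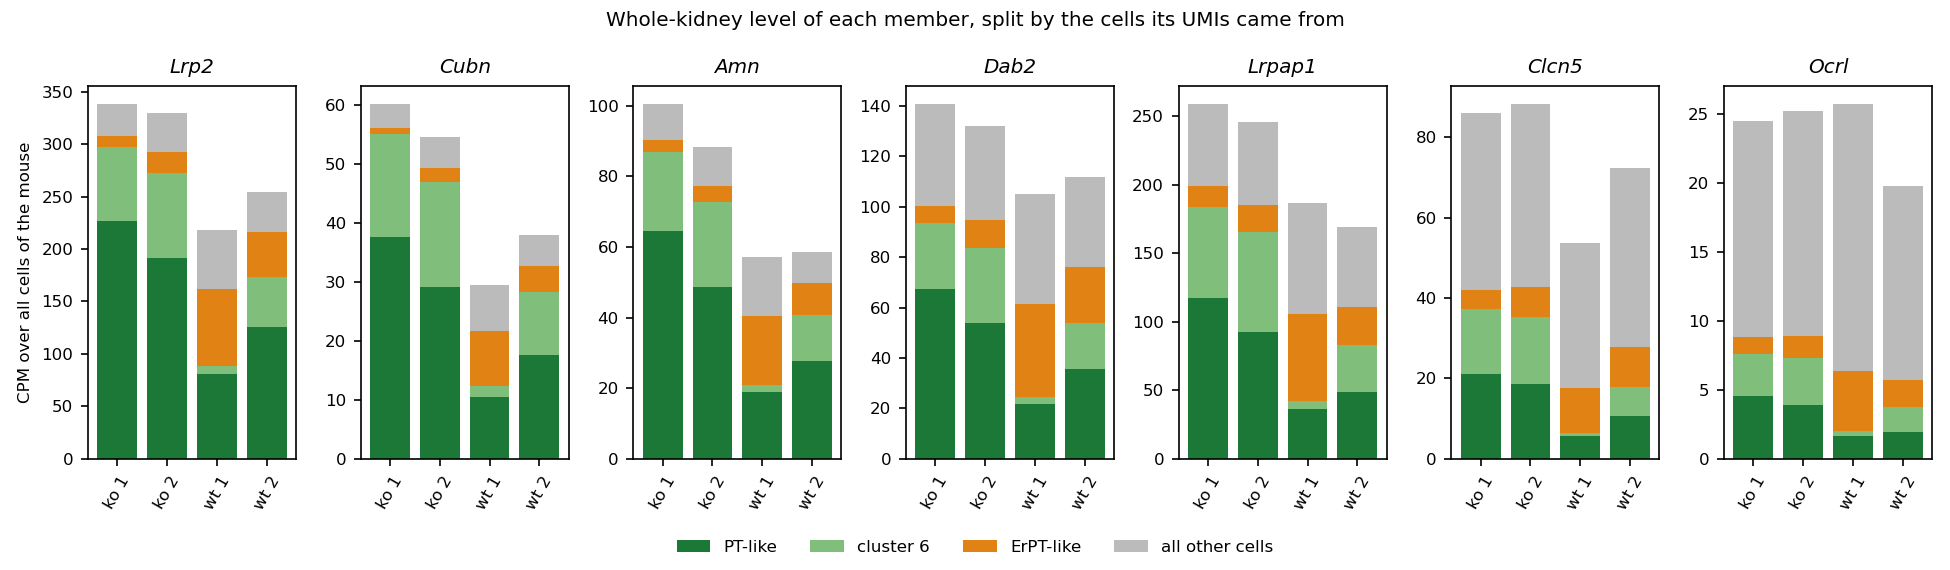
Level of each member over all cells of a mouse (CPM, vertical axis, from 0), split by the class the UMIs came from, for Trim28 Δ/Δ mice (ko 1, ko 2) and Trim28 f/f mice (wt 1, wt 2). The part of *Lrp2* from PT-like cells is 227 and 191 CPM in the Δ/Δ mice and 80.3 and 125 in the f/f mice, and the ErPT-like part is larger in the f/f mice.

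In the other 16 classes 90 member tests could be made, of 112 pairs of class and member, and none was called by edgeR, where 0.311% of all tests in these classes were. An unadjusted p under 0.05 was found in 7 of the 90, beside 6.30% of all tests, and the lowest adjusted p was 0.269. DESeq2 was run in immune-like and intercalated-like cells of these and called 0 members in each. *Clcn5* in nephron progenitor cell (NPC)-like cells had this lowest value, at 49.3 and 53.3 CPM in the Δ/Δ mice and 27.99 and 30.7 in the f/f mice (log2 change 0.66 ± 0.22). *Amn* in distal tubule-like cells, at 33.1 and 43.4 CPM against 25.8 and 21.9 (adjusted p = 0.559), also had a value above 0, and the other 5 of the 7 had one below 0. These were *Amn* (log2 change -1.65, adjusted p = 0.312) and *Dab2* (-0.75, adjusted p = 0.414) in NPC-like cells, *Lrp2* in SSB-like (-0.62, adjusted p = 0.857) and erythroid-like cells (-1.03, adjusted p = 0.495), and *Amn* in cluster 5 (-0.79, adjusted p = 0.436). The CPM of these 5, and of *Amn* in distal tubule-like cells, were under free RNA in every mouse. That of *Clcn5* in NPC-like cells was under it in both f/f mice and above it in both Δ/Δ mice. In immune-like cells *Dab2* had a log2 change of 0.38 ± 0.23, and in intercalated-like cells *Clcn5* had 0.76 ± 0.62 and *Dab2* 0.90 ± 0.42, none called. The intercalated values turn on the f/f mice: without f/f mouse 2 *Clcn5* was at 2.49 (adjusted p = 6.84e-23) and *Dab2* at 1.70 (adjusted p = 1.78e-08), with 10.7% of all genes called, and without f/f mouse 1 they were at -0.013 and 0.36 and were not called. Of the 90 tested pairs the Δ/Δ mice were above both f/f mice in 17 and below in 15, and 58 overlapped, where 22.2% of all tests in these classes were above and 14.1% below.

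The wider endocytic pathway was described with a list of 79 genes: 20 of adaptors and coat, 20 of endosome and recycling, 19 of acidification and 20 of the lysosome. In PT-like cells all 79 could be tested, 0 rose and 0 fell by edgeR, 5 had an unadjusted p under 0.05 (beside 10.7% of all genes tested), and DESeq2 called 1, *Psap*. The medians of the 4 sublists were -0.072, 0.012, -0.0042 and 0.072 on the log2 scale, beside -0.0050 for all genes. The 5 genes were named after their values were seen. *Psap*, which encodes the precursor of the saposins that help degrade sphingolipids, was at 266 and 263 CPM in Δ/Δ and 177 and 170 in f/f mice (log2 change 0.62 ± 0.13, edgeR adjusted p = 0.0833). *Ehd1*, an ATPase of recycling endosomes, was at 120 and 120 CPM against 77.6 and 79.9 (log2 change 0.61 ± 0.13, adjusted p = 0.101). *Npc2*, a lysosomal carrier of cholesterol, was at 161 and 178 CPM against 253 and 221 (adjusted p = 0.220), and *Ctsh* and *Ehd3* had adjusted p of 0.370 and 0.344. Without f/f mouse 2 the count was 13 genes, *Psap*, *Ehd1* and *Npc2* among them (14.7% of all genes called), and without f/f mouse 1 it was 3 (4.31%). In ErPT-like cells 75 of the list were tested, in cluster 6 77 and over all cells 79, and edgeR called none in each. By adjusted p DESeq2 called 0, 0 and 2, beside 0.372%, 0.225% and 4.25% of all genes. At an unadjusted p under 0.05 edgeR had 6, 6 and 7, beside 7.76%, 7.70% and 15.7% of all genes.

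**Figure D5:**
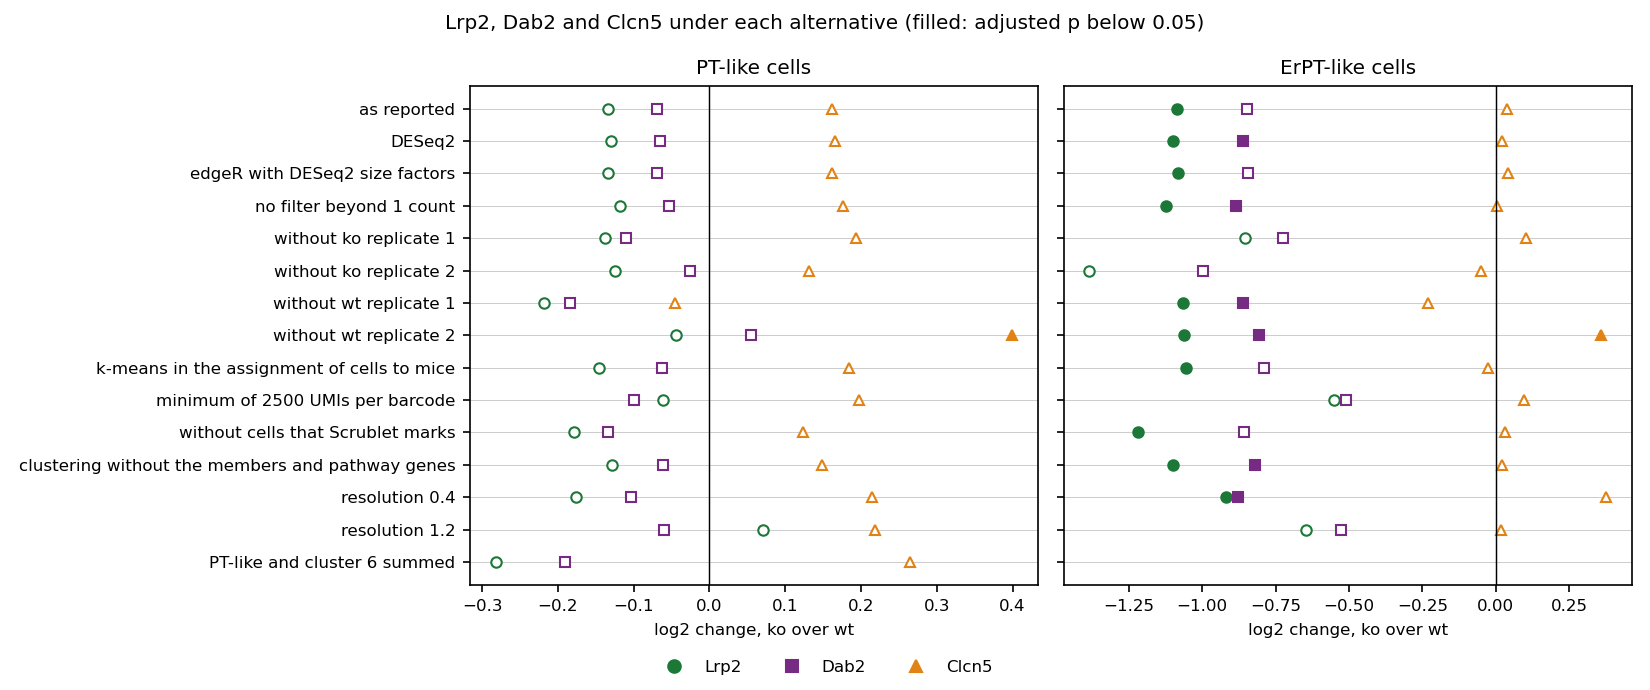
Log2 change of *Lrp2*, *Dab2* and *Clcn5* (horizontal axis, Trim28 Δ/Δ over Trim28 f/f) in PT-like cells (left) and ErPT-like cells (right) as reported and under each alternative; filled points have an adjusted p below 0.05. In ErPT-like cells *Lrp2* stays below 0 in every setting, from -1.38 to -0.55, whereas in PT-like cells it lies between -0.28 and 0.07.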

How the data were processed

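Single-cell 3′ RNA and tag counts of 1 pool of embryonic mouse kidney cells were analysed. The authors deposited counts of UMIs per gene and tag, made with Cell Ranger 6.0.0 by the submitters' processing notes, unnormalized and with every barcode. Which build and annotation underlie them is not stated in the labels or methods, and gene positions were joined by Ensembl identifier. The 6 bulk samples of the series and the cells of 4 further tags (4508) were not used here.

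Cell barcodes had at least 6891 UMIs (the order-of-magnitude rule of Cell Ranger, for 24000 cells), 200 genes or more and no more than 10% mitochondrial UMIs. Tags were called with Seurat 5.3.0 (positive quantile 0.99). Cells with several tags (4721) were removed as doublets, cells with none (2680) were left out, and Scrublet marks among assigned cells (563) were tried as an alternative. Cells were clustered with sctransform 0.4.2, 30 components and resolution 0.8 into 23 clusters, and clusters were named from marker lists of 5 to 9 genes. Total UMIs were 25761268 and 31087277 in the Δ/Δ mice and 52777501 and 35851952 in the f/f mice. Cubilin and megalin levels by class rest on these names.

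UMIs were summed per mouse and class and tested with edgeR 4.0.16 (TMM, filterByExpr, quasi-likelihood, R 4.3.3), with Benjamini-Hochberg adjustment over all genes of a class and a threshold of 0.05. Classes with under 10 cells in a mouse were not tested. Differences between classes used 1 model of both, with a term for each mouse, so that the classes of a mouse were compared within it, and one for genotype by class. DESeq2 1.42.0, other filters, clusterings, cell minimums and leaving out each mouse were alternatives. Shares of cells used 6800 UMIs drawn per cell. The scripts were tested on simulated counts. The embryos are separate animals of 1 pool, so p-values rest on 2 mice a genotype. In the edgeR fits the spread of a gene between mice is estimated with help from all genes tested. The p-value of a gene thus does not measure its own spread alone.

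The genes named are the 7 members, pathway genes past the threshold in PT-like cells (at most 8; none passed, and those named were chosen by unadjusted p after their values were seen), the 5 genes most like *Lrp2* and *Cubn* by Pearson correlation of log2(CPM + 10) over clusters among genes with at least 50 CPM in 1 cluster, and *Trim28* with 5 PT markers as a check. Members and lists were chosen with earlier results of these data known.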

Additional observations from a re-analysis of the deposited data

Results flagged for a closer look

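The 3 results below stood out because the Δ/Δ against f/f change differed between PT-like and ErPT-like cells by the interaction test. The difference of the log2 change, PT-like minus ErPT-like, was 0.99 for *Lrp2*, 1.002 for *Amn* and 0.80 for *Dab2* (edgeR adjusted p = 0.0218, 0.0295 and 0.0445). For each gene the 2 Δ/Δ mice were below both f/f mice in ErPT-like cells. In PT-like cells *Amn* and *Dab2* overlapped between genotypes and *Lrp2* was just lower in both Δ/Δ mice (log2 change -0.13). With clusters made without the members and pathway genes the difference was 1.001 for *Lrp2* (adjusted p = 0.0205), 0.89 for *Amn* (0.0455) and 0.78 for *Dab2*, which no longer passed (0.0528). None of the 3 passed with a minimum of 2500 UMIs per barcode (0.49, 0.61 and 0.40 for *Lrp2*, *Amn* and *Dab2*, adjusted p = 0.241, 0.169 and 0.550) or at resolution 1.2 (0.73, 0.65 and 0.45, adjusted p = 0.0997, 0.272 and 0.522). In ErPT-like cells 8 of 9 PT markers were also lower in both Δ/Δ mice, with a summed 818 and 930 CPM against 1391 and 1625, and their part was not tested.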

How the results depend on the processing

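No paired analysis was possible because replicate numbers are shared only by the bulk samples, which were not analysed here, and the tags pair no Δ/Δ mouse with an f/f mouse. The differences between classes did have a term for each mouse. Only 1 cluster was PT-like in the clustering used, so taking each PT-like cluster on its own was not applicable. With 2 mice a genotype, leaving out 1 leaves a group with a single mouse, which is assumed to vary like the others; the cause of each change below was not tested. In ErPT-like cells 1 member was called (0.373% of all genes). The count was 2 with DESeq2 (0.372%), 2 with clustering without the members and pathway genes (0.516%) and 2 at resolution 0.4 (0.817%). It was 4 without a filter (2.05%), 0 with a minimum of 2500 UMIs (0.344%) and 0 at resolution 1.2 (0.386%). It also moved with the mouse left out, as given above. *Lrp2* there ran from -1.38 to -0.85 with a mouse left out. Over all cells 0 were called, but 2 with DESeq2, 4 without a filter and 0 to 6 with a mouse left out. In PT-like cells 0 were called, and 0 to 1 with a mouse left out; the pathway list had 0, 1 with DESeq2 and 0 to 13 with a mouse left out. The count of members whose change differed between PT-like and ErPT-like cells was 3 (0.529% of all genes). It was 5 without a filter (1.61%) and 2 with clustering without the members and pathway genes (0.403%). In alternatives chosen after seeing the data it was 0 with a minimum of 2500 UMIs (0.253%) and 0 at resolution 1.2 (0.517%). It also moved with the mouse left out, as given above.

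Signs turned for values near 0. In PT-like cells *Ocrl* was -0.013 with k-means tags, -0.036 without Scrublet marks and -0.027 at resolution 0.4, and *Lrp2* was 0.071 at resolution 1.2. With PT-like cells and cluster 6 summed, an alternative chosen after seeing the data, *Cubn* was at -0.037, *Amn* at -0.036 and *Ocrl* at -0.029. With a mouse left out, *Cubn* ran from -0.042 to 0.24, *Clcn5* from -0.045 to 0.40, *Dab2* from -0.18 to 0.055 and *Ocrl* from -0.062 to 0.16. In ErPT-like cells *Clcn5* was -0.027 with k-means tags and -0.23 to 0.36 with a mouse left out, *Ocrl* ran from -0.37 to 0.0037, and *Lrpap1* was 0.022 with a minimum of 2500 UMIs and 0.011 at resolution 1.2. Over all cells *Ocrl* ran from -0.093 to 0.28. In the difference to loop of Henle-like cells, *Amn* was 0.033 and *Lrpap1* 0.037 without a filter, *Lrpap1* 0.0051 and *Ocrl* -0.062 with clustering without the members, *Lrp2* -0.28 and *Amn* 0.012 with a minimum of 2500 UMIs, *Amn* 0.13 and *Dab2* 0.11 at resolution 1.2, and with a mouse left out *Lrp2* ran from -0.21 to 0.55, *Amn* from -0.92 to 0.43, *Dab2* from -0.66 to 0.31, *Lrpap1* from -0.093 to 0.060 and *Ocrl* from -0.054 to 0.086. The Δ/Δ minus f/f difference in the percentage of PT-like cells with a UMI, with all UMIs in place of 6800, was 0 for *Lrp2* and *Dab2*, -0.152 for *Amn* and -0.294 for *Lrpap1*. With a mouse left out this difference at 6800 UMIs ran from -1.12 to 0 for *Lrp2*, -3.79 to 9.85 for *Cubn*, 2.20 to 10.1 for *Amn*, 0.626 to 5.24 for *Dab2*, -1.31 to 1.72 for *Lrpap1*, -0.956 to 15.1 for *Clcn5* and -1.97 to 0.203 for *Ocrl*. In the clustering used, the share of the UMIs of all genes in PT-like cells was also higher in both Δ/Δ mice, as given above. The shares of each member's UMIs in PT-like cells kept their direction in all settings run, but their size moved. At resolution 1.2 the difference fell from 19.6 to 3.95 points for *Lrp2*, 16.8 to 1.09 for *Cubn*, 19.5 to 4.58 for *Amn*, 18.2 to 3.46 for *Dab2*, 17.4 to 3.67 for *Lrpap1*, 10.2 to 4.18 for *Clcn5* and 8.94 to 4.17 for *Ocrl*. It was 13.2 (*Ocrl*) to 27.6 (*Lrp2*) at resolution 0.4 and 16.8 (*Ocrl*) to 33.2 (*Lrpap1*) with cluster 6 added, with *Lrp2* at 30.9, but 8.40 (*Dab2*) to 15.007 (*Lrpap1*) with ErPT-like cells added as well, with *Lrp2* at 10.2. With a mouse left out it ran from 13.3 to 25.8 for *Lrp2*, 11.5 to 22.2 for *Cubn*, 12.2 to 26.8 for *Amn*, 12.7 to 23.6 for *Dab2*, 12.8 to 22.1 for *Lrpap1*, 8.20 to 12.3 for *Clcn5* and 7.21 to 10.7 for *Ocrl*.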

Other observations

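Which genes had the pattern most like the receptors was read from log2(CPM + 10) over 23 clusters, among 6703 genes with at least 50 CPM in 1 cluster. All points share 1 pool and its free RNA, and the correlations are a description. The 5 genes most like *Lrp2* were *Amn* (Pearson r = 0.986), *Tmem174* (0.984), *Vil1* (0.984), *Slc2a2* (0.982) and *Dao* (0.981). *Vil1* encodes villin, an actin-bundling protein of the brush border, *Slc2a2* the glucose transporter GLUT2 and *Dao* D-amino acid oxidase of peroxisomes. *Amn* was thus the gene nearest to *Lrp2*, whereas *Cubn*, the receptor that amnionless anchors, had rank 36 (0.966), *Lrpap1* rank 106 (0.923), *Dab2* rank 415 (0.653) and *Clcn5* rank 823 (0.433).

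The 5 genes most like *Cubn* were *Aadac*, *Fbp2*, *Agxt2*, *Hykk* and *Mep1a*, with r from 0.981 to 0.986, and *Lrp2* had rank 50. *Mep1a* encodes a metalloprotease of the brush border and *Agxt2* a mitochondrial aminotransferase. Within a class, the correlation of *Lrp2* with *Cubn* UMIs over PT-like cells was 0.06 to 0.24 in the 4 mice. That of *Lrp2* with *Dab2* over ErPT-like cells was 0.23 and 0.24 in the Δ/Δ mice and 0.48 and 0.54 in the f/f mice. In cluster 6 this pair had 0.37 and 0.23 against 0.13 and 0.49, which overlapped. In PT-like cells it had 0.11 and 0.04 against 0.12 and 0.19. Other pairs were also computed, and the correlations were not tested between genotypes. With an equal number of UMIs drawn from each cell, ErPT-like medians of *Lrp2* were 1 and 1 UMIs against 2 and 3. Those of *Dab2* were 0 and 1 against 1 and 1. The part of these counts in the correlations was not tested.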
